A study of Mus musculus with 3 samples.

Results

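The genes described here are 10 genes of heart muscle, read in mouse aortas: Myh6, Myl4, Myl7, Mybpc3, Tnnt2, Tnni3, Actc1, Sln, Nppa and Nppb. They were taken by gene name, current or as in the files, from the non-control spots of 3 two-colour Agilent arrays, with every probe on every array. All 10 were found, on 17 of 41174 probes and 35 of 43379 probe spots per array. After a filter that kept probes well above background in at least 1 dye on at least 2 of the 3 arrays, 16 of the 17 probes and all 10 genes were among the 22038 features tested. A feature is 1 gene, read by its brightest probe, or 1 probe with no gene name.

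Each array compared the aorta RNA of 1 individual Plk1(+/-) sample, labelled with Cy5, with RNA of the same pool of 3 wild-type aorta samples, labelled with Cy3. Plk1 encodes polo-like kinase 1, which drives mitosis, and the Plk1(+/-) samples carry 1 intact allele. Samples and pool came from 129/CD1 mice of 3 to 5 months. The labels call the 3 Plk1(+/-) samples biological replicates. No array had the dyes exchanged, so dye and genotype cannot be told apart, and the pool counts as 1 control sample whose own spread is not in the tests. Aorta is the tissue label and was followed, although the labels' growth protocol is about embryonic stem cells.

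The sarcomere is the contractile unit of striated muscle. Thick filaments of myosin heavy and light chains pull on thin filaments of actin, and the troponin complex switches the pull on with calcium. Heart muscle cells build it from their own set of isoforms, and the atria use a further set, with the light chains Myl4 and Myl7 and the calcium pump inhibitor sarcolipin (Sln). Atrial cells also store the natriuretic peptides Nppa and Nppb, hormones that lower blood pressure. The aorta wall itself is built by smooth muscle. Striated heart muscle lies next to it, at the root where the vessel leaves the heart and, in mice, in sleeves around the large thoracic veins.

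Sample over pool, the log2 ratio of Plk1 itself was -0.06 in sample 1, -0.08 in sample 2 and 0.42 in sample 3. It averaged 0.10 ± 0.28 (SD, n = 3), and its adjusted p in limma was 0.705. Where its probe lies relative to the altered part of the gene was not analysed here. Signal was well above background for 66.0% to 69.0% of probe spots in Cy3 and for 77.0% to 80.8% in Cy5. All 13 smooth muscle genes checked were measured, and 3 of them (Acta2, Tagln and Cnn1) had saturated spots. None of the 17 cardiac probes had a saturated spot. The number of arrays limits the precision.

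The sequences of 5 cardiac probes show what was hybridised. Positions are those given by the array files on mouse build mm7, and each probe is 60 bases long. The Myl4 probes are shown because they share 47 bases, in capitals, and therefore are not 2 independent readings of the gene. They lie at chr11:104693149-104693519 and chr11:104693162-104693532 on the plus strand, each aligned over 371 bases of genome. The Tnnt2 probe (chr1:135737607-135737919, plus strand, over 313 bases), a Myh6 probe (chr14:49811341-49812926, minus strand, over 1586 bases) and the Actc1 probe (chr2:113789115-113790038, minus strand, over 924 bases) are likewise aligned in pieces.
Myl4 first probe: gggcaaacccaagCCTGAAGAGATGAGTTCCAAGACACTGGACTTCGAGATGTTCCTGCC
Myl4 second probe: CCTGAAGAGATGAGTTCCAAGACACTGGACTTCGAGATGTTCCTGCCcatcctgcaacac
Tnnt2: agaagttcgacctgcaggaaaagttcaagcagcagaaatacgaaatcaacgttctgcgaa
Myh6 second probe: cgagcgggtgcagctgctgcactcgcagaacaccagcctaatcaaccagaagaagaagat
Actc1: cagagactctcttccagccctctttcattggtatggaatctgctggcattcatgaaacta

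Of the 7 cardiac sarcomere genes, 6 were far below the pool in samples 1 and 3 and near or above it in sample 2. The 6 genes Myl7, Tnnt2, Mybpc3, Myh6, Tnni3 and Myl4 had a median log2 ratio of -2.57 in sample 1, 0.36 in sample 2 and -2.68 in sample 3. Samples 1 and 3 lay between -4.10 and -1.78 for these genes and sample 2 between -0.27 and 0.54. The 6 genes are grouped because sample 2 was above both others by more than 1, so this separation is fixed by the grouping and is no test. Actc1, which is also a sarcomere gene, had its lowest value in sample 2 and is described on its own. Over all 22038 features the medians were 0.03, 0.01 and 0.04. None of the 10 genes passed limma's test against 0 at an adjusted p of 0.05, where 0.926% of all features did (0.889% of all features were called lower). Most of these 204 features had saturated spots, which no cardiac probe had. In the same fit 32 of the 21509 features without a saturated spot passed, 24 of them lower. At an unadjusted p under 0.05 there were 3 cardiac genes (Sln, Mybpc3 and Actc1), against 19.0% of all features. In whole tissue, fewer cells of a type and less RNA per cell cannot be told apart.

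**Figure D1:**
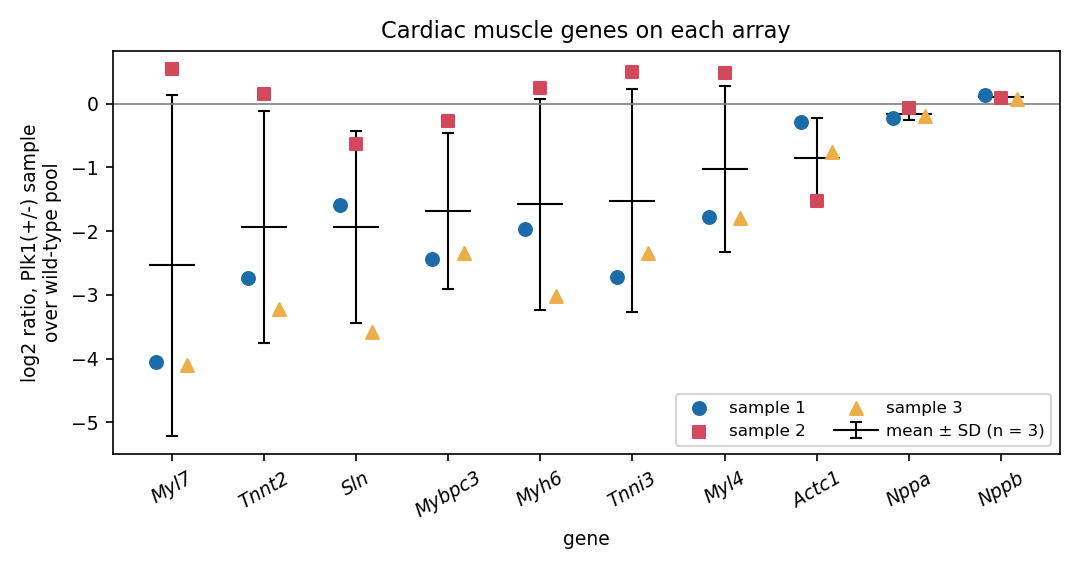
Log2 ratio of each Plk1(+/-) sample over the wild-type pool (vertical axis) for the 10 cardiac genes (horizontal axis), 1 probe per gene; symbols are samples, and bars are the mean ± SD of 3 samples. Sample 2 lies above both other samples by more than 1 for 6 genes, Actc1 has its lowest value there, and Nppa and Nppb stay close to 0.

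Myl7, the regulatory myosin light chain of the atria, had the widest spread. Its Cy5 mean signal, before background correction, was 643 in sample 1, 17073 in sample 2 and 690 in sample 3, while the pool read 4216, 4502 and 4302 in Cy3 on the same arrays. The log2 ratios were -4.06, 0.54 and -4.10. Samples 1 and 3 were therefore 16.7-fold and 17.1-fold below the pool, and sample 2 was above it. The mean was -2.54 ± 2.67 (SD, n = 3), at an adjusted p of 0.298 in limma. Of all features, Myl7 had the widest gap between sample 2 and the nearer of the other samples, 4.60 on the log2 scale. Its probe lies at chr11:5848640-5848699 on mm7, minus strand.

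Myl4, the essential light chain of the atria and of embryonic muscle, repeated the order of samples at a smaller size. The first probe gave -1.78, 0.48 and -1.79, a mean of -1.03 ± 1.30 (SD, n = 3), at an adjusted p of 0.359 in limma. The overlapping second probe gave -1.71, 0.39 and -1.67. Sample 2 was above both others, and samples 1 and 3 were nearly equal.

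Myh6, the alpha myosin heavy chain that is the main heavy chain of the adult mouse heart, was measured by 2 probes at separate positions. Log2 ratios were -1.96, 0.24 and -3.01 with the brighter probe (chr14:49813005-49813064 on mm7, minus strand) and -1.76, 0.55 and -3.28 with the one whose sequence is given above. Both probes placed sample 3 lowest and sample 2 highest. The mean of the brighter probe was -1.58 ± 1.66 (SD, n = 3), at an adjusted p of 0.299 in limma.

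Mybpc3, the cardiac form of myosin-binding protein C, which tunes the myosin heads of the thick filament, gave -2.44, -0.27 and -2.35. It was the only one of these 6 genes below the pool in sample 2 as well, except under median centring, where it was at 0.03. The mean was -1.68 ± 1.23 (SD, n = 3), with an unadjusted p of 0.0237 and an adjusted p of 0.217, both from limma.

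On the thin filament, Tnnt2, the cardiac troponin T that ties the complex to tropomyosin, gave -2.73, 0.15 and -3.22. In Cy5 its mean signal was 539, 5277 and 454, against 1478, 1891 and 1603 for the pool. Its mean log2 ratio was -1.93 ± 1.82 (SD, n = 3), at an adjusted p of 0.267 in limma. A second Tnnt2 probe, designed on an embryonic cDNA, was not well above background in either dye on any array and has no fold. It is the 1 cardiac probe that the filter removed.

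Tnni3, cardiac troponin I, which blocks the actin-myosin contact until calcium arrives, gave -2.71, 0.49 and -2.34. A second probe at a neighbouring position gave -2.38, 0.51 and -2.06. Samples 1 and 3 were thus below the pool with both probes and sample 2 was above it. For the first probe the mean was -1.52 ± 1.75 (SD, n = 3), at an adjusted p of 0.326 in limma.

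Sln was below the pool in sample 2 as well. Sarcolipin is a small membrane peptide that inhibits the calcium pump of the sarcoplasmic reticulum, in the atria and also in skeletal muscle. The log2 ratios were -1.59, -0.62 and -3.58, so all 3 samples were below the pool, by 3.00-fold, 1.54-fold and 12.0-fold. The mean was -1.93 ± 1.51 (SD, n = 3), with an unadjusted p of 0.0293 and an adjusted p of 0.228, both from limma. Its gap between sample 2 and sample 1 was 0.96, just short of the 1 used for the count of genes high in sample 2. With ratios scaled between arrays Sln gave -1.085, -1.386 and -2.359, so sample 2 was then below sample 1. The second Sln probe was dim, above background in the pool on 1 of 3 arrays, and gave -0.05, 0.01 and -0.29.

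Actc1 ran the other way. It encodes cardiac alpha-actin, the main thin-filament actin of the adult heart. The log2 ratios were -0.29, -1.53 and -0.76, lowest in sample 2, where 37.5% of all features also had their lowest value. Under median centring sample 1 was above the pool, at 0.21. The mean was -0.86 ± 0.63 (SD, n = 3), with an unadjusted p of 0.0257 and an adjusted p of 0.223, both from limma. The normalized Cy5 signal of sample 2 was 0.585 times that of sample 1, whereas for Myl7 it was 24.5 times. The pool's own normalized log2 signal for Actc1 was 14.10, 14.57 and 14.54 on the 3 arrays, and the samples gave 13.81, 13.04 and 13.78 in Cy5. The higher ratio of sample 1 thus lay partly in Cy3 against sample 2, and mostly in Cy3 against sample 3.

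Most smooth muscle genes were lowest in sample 2 too. This held for 7 of the 10 without a saturated spot, while Des, Synpo2 and Smtn were lowest in sample 3. The 10 genes had medians of -0.36, -1.22 and -0.95 (0.12 in sample 1 under median centring), and Actg2, the enteric smooth muscle actin, gave -0.36, -1.29 and -0.68. Acta2, the vascular smooth muscle actin, was saturated and has no fold. The coding sequences of the muscle actins are nearly identical, and the part of other actin transcripts in the Actc1 signal was not tested. Among all named features without a saturated spot, chosen after the values were seen, those nearest to Actc1 over the 3 arrays were Wfdc1 (-0.37, -1.53 and -0.79), Adamts8 and Rrad, at Euclidean distances of 0.0841, 0.162 and 0.187 on the log2 scale.

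The natriuretic peptides gave log2 ratios close to 0. Nppa, atrial natriuretic peptide, was printed 10 times on each array, and the mean of those spots gave -0.22, -0.07 and -0.20. Spots of 1 array varied with an SD of 0.12, 0.0858 and 0.10. Its Cy5 mean signal was 218, 269 and 214, and the pool read 136, 138 and 127. All 10 spots were well above background in both dyes on every array. The mean was -0.16 ± 0.083 (SD, n = 3), at an adjusted p of 0.308 in limma.

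The second Nppa probe, also with 10 spots, was near background, with 2, 4 and 0 spots above it in the pool on the 3 arrays and 7, 7 and 6 in the samples. It gave -0.07, -0.09 and -0.12. Nppb, brain natriuretic peptide, which the stretched heart releases, gave 0.14, 0.09 and 0.08, the highest mean of the 10 genes at 0.11 ± 0.034 (SD, n = 3), at an adjusted p of 0.423 in limma. This Nppb probe was dim, with 1 spot per array, which limits its ratios. The pool read 155, 148 and 145 in Cy3, with a background of 57, 55 and 56.5. A still dimmer Nppb probe gave -0.12, -0.15 and 0.03, so the sign was not the same with both probes in samples 1 and 2. The order of Nppa, with sample 2 highest, spanned 0.15 on the log2 scale, against 4.64 for Myl7. The Nppa probe was dim, with a Cy3 background of 50.4, 51.5 and 51.1 under the pool's signal, which limits this comparison. Its deposited log ratios were larger, at -0.41, -0.12 and -0.38. With ratios scaled between arrays it gave -0.154, -0.155 and -0.132, and sample 2 was not highest.

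Ordered by mean log2 ratio, the genes ran from Myl7, Tnnt2, Sln, Mybpc3, Myh6, Tnni3, Myl4 and Actc1 to Nppa and Nppb. From Myl7 to Actc1, the differences between neighbouring means were smaller than the SD of either gene. The means of Actc1 and Nppa differed by more than the SD of either, as did those of Nppa and Nppb. In sample 1, however, Actc1 and Nppa were close (-0.29 and -0.22). All genes were read on the same arrays, so the SD of each gene is not the spread of a difference between genes. These differences were not tested. Of the 10 genes, 4 (Sln, Mybpc3, Actc1 and Nppa) were below the pool on all 3 arrays, against 19.1% of all features. Under median centring Mybpc3 and Actc1 were each above it on 1 array.

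The spread lay mostly in the Cy5 samples rather than in the Cy3 pool. The pool was hybridised 3 times, and for the probes that stand for the 10 genes its normalized log2 signal had SDs over the arrays from 0.0365 (Mybpc3) to 0.265 (Actc1). In Cy5, the same probes had SDs over the samples of up to 2.65 (Myl7). Over 21509 features without a saturated spot the median SD was 0.0989 in the pool and 0.173 in the samples, and the 90th percentile in the pool was 0.217. In the normalized Cy5 signal, sample 2 was 24.5-fold above sample 1 and 23.4-fold above sample 3 for Myl7. These signals follow loess and a scaling of average intensity between arrays, and both steps use both dyes.

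Tnnt2 gave 9.02-fold and 11.1-fold in the same comparison, and Tnni3 gave 9.02-fold and 5.53-fold. For Myh6 the values were 5.80-fold and 12.8-fold. Myl4 (6.57-fold and 6.55-fold) and Mybpc3 (4.63-fold and 4.45-fold) were nearly equal against both samples. The overlapping second Myl4 probe gave less, 4.53-fold and 4.28-fold. Sln was 1.73-fold above sample 1 and 9.47-fold above sample 3. These differences are between single samples and have no test.

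**Figure D2:**
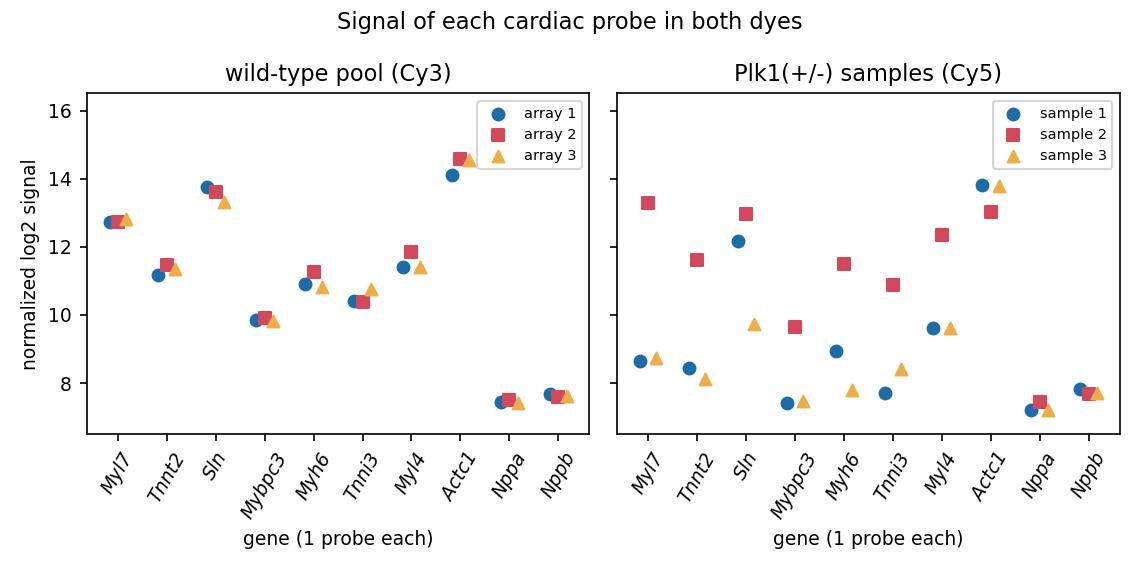
Normalized log2 signal (vertical axis) of the wild-type pool in Cy3 on the 3 arrays (left) and of the Plk1(+/-) samples in Cy5 (right) for the probe of each cardiac gene; levels are to be compared within a gene only. The pool's SD over arrays is at most 0.265, while sample 2 stands 24.5-fold above sample 1 for Myl7 in Cy5.

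Few features shared the gap of sample 2. It was above both other samples by more than 1 on the log2 scale for 79 of 22038 features, or 0.358%, and for 6 of the 10 cardiac genes (Myl7, Tnnt2, Tnni3, Myl4, Myh6 and Mybpc3). This is a count without a test. Behind Myl7, the widest gaps among named genes were those of Apoa2 (-2.38, 2.03 and -2.18), Ambp (-2.47, 1.69 and -2.42) and Ces1c (-1.96, 2.22 and -1.82), which liver makes in quantity. In sample 2 these were above the pool by more than the cardiac genes were, and their part in the cardiac values was not tested.

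**Figure D3:**
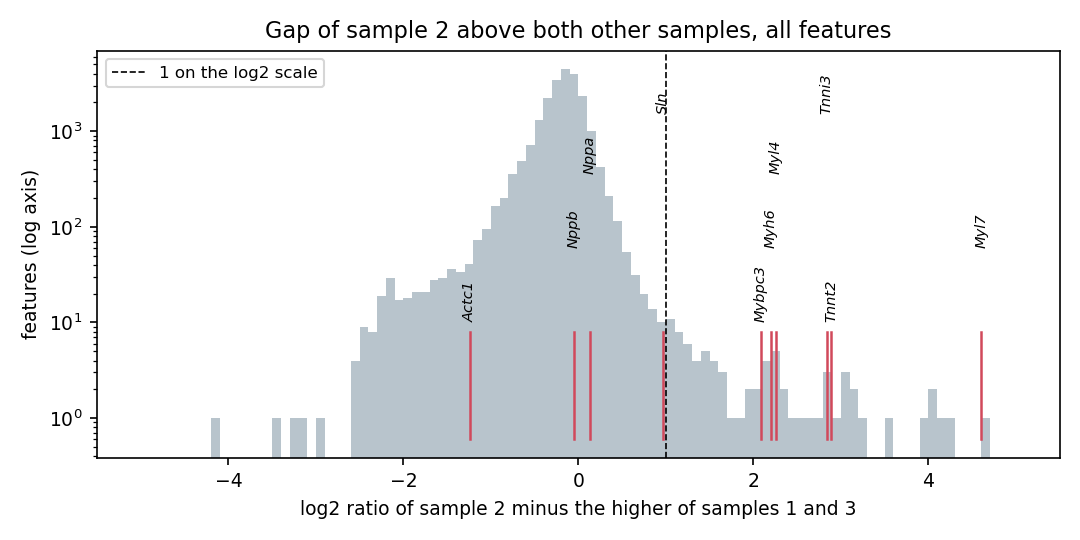
Number of features (vertical, log axis) by the log2 ratio of sample 2 minus the higher of samples 1 and 3 (horizontal axis), with the 10 cardiac genes as red lines. Only 79 of 22038 features lie to the right of the dashed line at 1, among them 6 cardiac genes, with Myl7 farthest at 4.60.

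Other sarcomere and Z-disc genes of heart, which include genes shared with skeletal or slow muscle, had log2 ratios below 0 in all samples. Of 20 such genes 19 were tested. All 19 were below the pool on all 3 arrays (13 of 19 under median centring), against 19.1% of all features. At an unadjusted p under 0.05 there were 15 of the 19, against 19.0% of all features. At a limma adjusted p under 0.05 there were 0, against 0.926%. Their medians were -0.68, -0.89 and -2.19 in samples 1, 2 and 3, and sample 3 was lowest for 16 of the 19. With ratios scaled between arrays the medians were -0.47, -1.98 and -1.44, and sample 3 was lowest for 6. Myh7, the slow and ventricular myosin heavy chain, gave -0.76, -1.60 and -3.34, and Myl2, its light chain, gave -0.68, -1.35 and -3.26.

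Titin (Ttn, -0.88, -0.90 and -3.32), alpha-actinin 2 (Actn2, -1.08, -1.17 and -3.02) and the light chain Myl3 (-0.41, -0.57 and -1.42) had sample 3 lowest as well. In these genes sample 2 lay beside or below sample 1. Ankrd1, a stress-responsive titin-binding protein, was the 1 gene of the 19 with sample 2 above both others by more than 1 (-1.46, -0.11 and -1.87). Tnnc1, the troponin C that cardiac and slow muscle share, gave -0.65, -0.12 and -2.19. Whether the 6 cardiac sarcomere genes and these 19 differ in their order of samples was not tested.

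Genes of fast skeletal fibres followed these other sarcomere and Z-disc genes. The 14 without a saturated spot had medians of -0.75, -0.81 and -2.70, and sample 3 was lowest for all 14. With ratios scaled between arrays the medians were -0.51, -1.80 and -1.78, and sample 3 was lowest for 7. Acta1, skeletal alpha-actin, gave -0.67, -0.96 and -2.29, and Mylpf, the fast light chain, gave -0.63, -0.70 and -3.15. Without that scaling, sample 1, where the 6 cardiac sarcomere genes had a median of -2.57, was close to sample 2 in the skeletal genes. With it, sample 2 was close to sample 3 instead. The 9 slow fibre genes, some of which are also among the other sarcomere and Z-disc genes, had medians of -0.65, -0.92 and -2.19. The part of skeletal muscle RNA in the cardiac values was not tested.

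**Figure D4:**
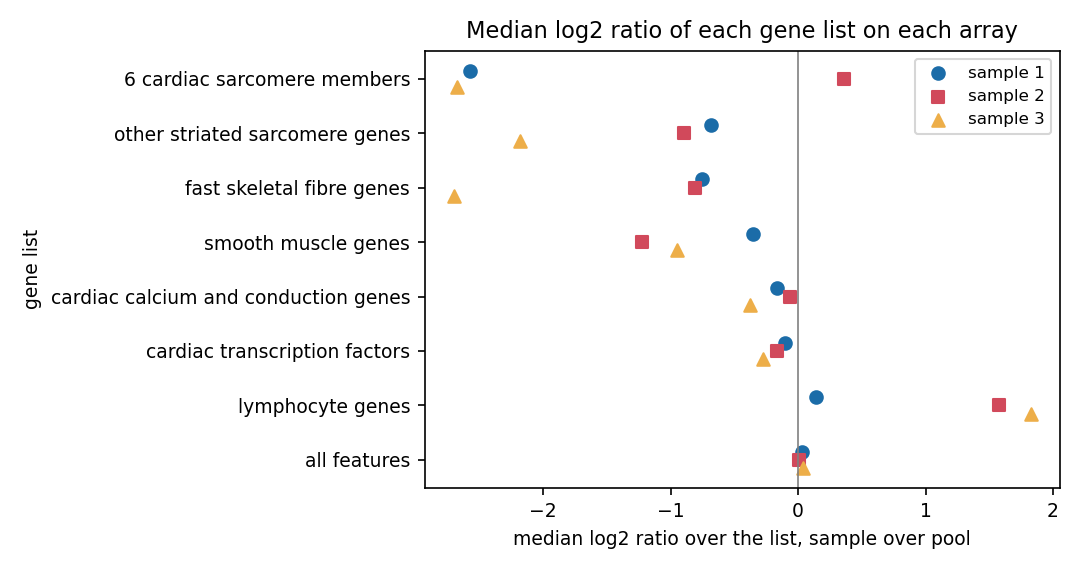
Median log2 ratio of sample over pool (horizontal axis) in each sample for 8 sets of features (vertical axis); skeletal and smooth muscle sets leave out saturated genes. The 6 cardiac sarcomere genes, grouped for this order, have samples 1 and 3 low together (-2.57 and -2.68). The medians of the other striated sarcomere and fast fibre genes are lowest in sample 3 (in sample 2 if ratios are scaled between arrays), and that of smooth muscle genes is lowest in sample 2.

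Genes of heart calcium handling and conduction were near the pool in the median, with some far below it. Of 20 genes 19 were tested, with medians of -0.16, -0.07 and -0.38. None passed a limma adjusted p of 0.05, and 7 had an unadjusted p under 0.05, against 0.926% and 19.0% of all features. Phospholamban (Pln), the other small inhibitor of the calcium pump, was the 1 gene with the order of the cardiac sarcomere genes and a gap above 1 (-0.89, 0.14 and -1.08). The pump itself, Atp2a2, gave -0.16, 0.08 and -0.48. Ryr2, the calcium release channel of the heart, gave 0.26, -0.03 and 0.08. Hcn4, the pacemaker channel (0.02, 0.04 and 0.19), and Gja5, a connexin of atria and arterial endothelium (0.02, -0.32 and -0.67), were also measured, and Kcnj5 had no feature tested. The lowest means of this list, named after their values were seen, were those of 4 proteins of the calcium store and its junctions. Trdn gave -0.74, -0.91 and -2.97, and Hrc gave -0.75, -0.88 and -2.70. Jph2 gave -0.64, -1.54 and -0.96, and Casq2 gave -0.43, -0.49 and -1.48. Sample 2 was below sample 1 in all 4.

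The 15 cardiac transcription factors tested had medians of -0.10, -0.17 and -0.27. At a limma adjusted p of 0.05 there were 0, and 6 had an unadjusted p under 0.05, against 0.926% and 19.0% of all features. Nkx2-5 gave -0.22, -0.11 and -0.33, Gata4 gave 0.17, 0.03 and 0.41, and Tbx5 gave -0.20, -0.15 and -0.40. The lowest means, named after their values were seen, were those of Myocd (-0.14, -1.68 and -1.20), Gata6 (-0.44, -0.93 and -0.56) and Hey2 (0.06, -1.06 and -0.56), all with sample 2 lowest. None of the 15 had sample 2 above both others by more than 1. Bmp10, an atrial growth factor, had no feature tested.

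Around the 2 hormones, the pathway of 12 genes held 4 with an unadjusted p under 0.05 and 0 with a limma adjusted p under 0.05. Of all features, 19.0% and 0.926% did so. Npr1, the receptor of both, gave -0.24, -0.57 and -0.55. Npr3, the clearance receptor, gave 0.38, 0.40 and -1.05, with sample 3 alone low. Nppc, the peptide that endothelium makes, gave 0.14, -0.15 and -0.67, and Corin, the protease that cuts the Nppa precursor, gave -0.08, 0.16 and -0.17. The medians of the 12 genes were -0.06, -0.04 and -0.30.

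Likeness to the cardiac set was measured as the Euclidean distance, over the 3 arrays, to the median log2 ratios of the 10 genes (-1.87, 0.12 and -2.34). The nearest named genes outside the set, without a saturated spot, were Ankrd1 (distance 0.667), Klhl31 (0.921), Mup4 (0.959), Mlf1 (1.15) and Mybpc2 (1.16). Actn3, Tnnc1, Nmrk2, Myoz1 and Ddit4l came next, at up to 1.29. Klhl31 gave -1.89, -0.69 and -1.92, and Mup4, of the major urinary protein family, gave -2.53, -0.40 and -2.81.

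Markers of other tissues that can cling to a dissected aorta were read as well. Lymphocyte genes had medians of 0.14, 1.57 and 1.83, high in samples 2 and 3. The 6 brown fat genes without a saturated spot had medians of -0.21, 0.17 and 0.13, and 9 mesothelial genes had -0.36, 0.44 and 0.15. The 8 Schwann cell and neuron genes had 1.35, 0.61 and -0.21, highest in sample 1. The medians of brown fat and mesothelial genes were highest in sample 2 and lowest in sample 1. The single brown fat genes did not have this order. Dio2 and Ppargc1a were highest in sample 3, Elovl3 and Otop1 lowest in sample 3, and Ppara and Prdm16 lowest in sample 2. Single mesothelial genes differed as well. In brown fat, Dio2 gave -1.12, 0.39 and 0.64, and Prdm16 gave -0.25, -2.95 and 0.15. The other 6 brown fat genes, Ucp1 among them, had saturated spots. Of the mesothelial genes, Upk3b had the order of the medians (-0.49, 0.62 and 0.15) and Krt8 did not (-0.22, 0.02 and -0.37). Krt18 gave -0.60, -0.64 and -0.62. It was the 1 of the 9 with a limma adjusted p under 0.05 (0.0496), against 0.926% of all features. The part of these tissues in the cardiac values was not tested.

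Promoters of 9 of the 10 genes were matched in RefSeq on build GRCm38.p6, 10 windows in all because Tnnt2 has 2 starts. Sln was not matched. Each window holds 250 bases before and 50 after a start. A CArG box, the site of serum response factor, was found in 2 of the 10 windows (Myl7 and Actc1), and 1.63% of all 32851 promoters hold one. The MEF2 site, named for a muscle transcription factor family, was found in 1 (Mybpc3), against 3.19% of all promoters. Both strands were searched, and a match is a description of the letters only.

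Of the shorter motifs, the TEAD motif CATTCC was in 4 windows (Myl7, Tnnt2, Myh6 and Nppb) and in 14.7% of all promoters. For the zinc-finger factors of the Gata family, the motif AGATAA was in 2 (Tnnt2 and Nppb) and in 11.2%. The Nkx motif AAGTG was in 5 and in 46.4%, and the E-box CANNTG was in 9 and in 72.3%. CANNTG and AAGTG overlap in the letters CAAGTG in Mybpc3 and Nppa, and on the other strand in Myl7.

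The 100 bases before the start follow for the 4 genes whose CArG box, MEF2 site or CATTCC lies there, with those matches in capitals. The windows are chr11:5898783-5898882 (minus strand) for Myl7, chr2:114052876-114052975 (minus strand) for Actc1, chr2:91118044-91118143 (plus strand) for Mybpc3 and chr1:135836234-135836333 (plus strand) for the first start of Tnnt2. Myl7, highest in sample 2, has its CArG box 61 bases before the start, and Actc1, lowest in sample 2, has the same 10 letters on the opposite strand 47 bases before it. Tnnt2 has CATTCC 27 bases and Myl7 70 bases before the start.
Myl7: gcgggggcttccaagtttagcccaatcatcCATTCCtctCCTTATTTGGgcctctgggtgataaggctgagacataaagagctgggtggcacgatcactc
Actc1: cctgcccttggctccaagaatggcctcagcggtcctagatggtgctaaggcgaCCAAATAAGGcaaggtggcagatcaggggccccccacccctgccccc
Mybpc3: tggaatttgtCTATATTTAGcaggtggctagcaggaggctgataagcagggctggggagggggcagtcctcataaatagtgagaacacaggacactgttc
Tnnt2: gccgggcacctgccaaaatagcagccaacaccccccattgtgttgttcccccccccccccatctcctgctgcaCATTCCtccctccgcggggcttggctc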

How the data were processed

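Spots were scanned and read with Agilent Feature Extraction, version 9.5.3.1, which gave the deposited intensity values, per the file headers. The deposited log10 ratio is processed Cy5 over processed Cy3. The series table by the authors holds log2 values of 28817 of the 41174 probes, with an unstated centring step and column medians of -0.0227, -0.00516 and -0.0321. Against the scanner log ratio their slopes were 0.997, 1.00 and 0.998, and both were used as alternatives.

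Background correction was by normexp (offset 50) on the mean signals of all spots. Loess within each array followed, with weight 0 for control spots (limma 3.58.1, R 4.3.3). Spots marked as outliers were left out, spots of a probe averaged, and the brightest kept probe used for each gene. limma's moderated test (lmFit, eBayes, two-sided) asked whether each mean log2 ratio was 0, and p-values were adjusted by Benjamini-Hochberg over 22038 features. The code was tested on simulated data. All arrays are on 1 slide with 1 scan, so no batch could be tested.

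Names were updated through a listing of GRCm38.p6, and 22951 probes matched by accession, 6659 by current symbol, 3109 by synonym and 8455 kept the files' name. Exon and UTR positions of the probes were not analysed here. Named are the 10 genes, further heart, natriuretic and muscle genes by role, and the 10 features nearest to the median of the set. Genes and lists were chosen with earlier results of these data known.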

Additional observations from a re-analysis of the deposited data

How the results depend on the processing

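Over 16 alternatives for each of the 10 cardiac genes, every mean log2 ratio kept its sign, and none of the 10 passed an adjusted p of 0.05 in limma. Adjusted p-values ran from 0.0786 (Mybpc3) to 0.930 (Nppb), and the mean of Myl7 from -4.08 without replicate 2 to -1.20. On single arrays, median centring put Actc1 above 0 in sample 1 (0.21) and Mybpc3 above 0 in sample 2 (0.03). Under 6 scalings the gap of sample 2 stayed above 1 in all 6 for 5 genes and in 5 for Mybpc3.

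Counts over all features depended on the setting. Against 204 calls, there were 121 with a normexp offset of 10, 125 with the deposited log ratio and 433 with array weights. Median centring gave 9758 (7150 higher and 2608 lower, against 8 and 196) and moved the median of all features to 0.23. Scaling between arrays gave 0 in limma, with 1274 features at an unadjusted p under 0.05, and leaving out saturated features gave 0, with 3805. Leaving out 1 sample gave 0 to 175 in limma: 0 without sample 2 (1983 unadjusted), 0 without sample 3 (3095) and 175 without sample 1. The causes were not tested. No paired analysis was possible because there is 1 group of samples, each already compared with the same pool. With 3 samples and 1 pool, differences between single samples have no test, and the second probes of Nppa, Nppb and Sln were close to background, which limits what they can show.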
